A study of Mus musculus with 53 samples.

Results

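Choline is taken up into cells by membrane transporters, phosphorylated, activated with CTP and joined to diacylglycerol to give phosphatidylcholine, the main phospholipid of most membranes. In a peripheral nerve, Schwann cells use this route to build myelin, and cholinergic neurons instead pass choline taken up by a high-affinity transporter to choline acetyltransferase to make acetylcholine. The 10 genes described here, of 49568 listed, encode the steps of this route: the high-affinity transporter Slc5a7, the lower-affinity transporters Slc44a1 and Slc44a2, choline acetyltransferase (Chat), the choline kinases Chka and Chkb, the cytidylyl transferase Pcyt1a, the phosphotransferases Cept1 and Chpt1, and the methyltransferase Pemt. They were taken by symbol, and the set was chosen by measured values in that Slc5a7 had already been seen to differ at 24 weeks in these data, so all of its differences that involve 24-week samples are given as descriptions with no test.

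RNA from the sciatic nerve of male C57BL/6J mice was sequenced in 53 samples, which fell into 8 groups. Standard diet (SD) mice were the controls at both ages (5 samples at 16 weeks of age and 8 at 24 weeks). HFD mice, the prediabetic model, ate a diet with 60% of its calories as fat from 5 weeks of age (7 samples at each age). HFD-STZ mice, the type 2 diabetes model, ate the same diet and received streptozotocin, a toxin of the insulin-producing beta cells, from 12 weeks at 75 and then 50 mg/kg (5 samples at 16 weeks and 8 at 24 weeks). In the dietary reversal groups, HFD-DR (7 samples) and HFD-STZ-DR (6 samples), mice of both models were moved at 16 weeks to a control diet lower in fat for 8 weeks and studied at 24 weeks. The fat content of that diet is stated differently in the study and in its deposited description. The values are log2 levels as normalised by the authors, the number of reads behind each is unknown, and the whole nerve was used, so that fewer cells of a type and less RNA per cell cannot be told apart. Nothing in the labels says that each sample came from a separate mouse, so p-values measure only the spread between these samples, which may be technical.

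The samples were those of a myelinated nerve that held other tissue in varying amounts. The 4 myelinating Schwann cell markers used were abundant, with a mean log2 value between 17.43 and 18.53 in every sample. The mean of 6 adipocyte markers ran from 8.51 to 14.08 over the samples, with all 6 of its genes above the filter on low values and none at 0, and the mean of 6 skeletal muscle markers ran from 5.68 to 14.16, with 5 of its 6 genes above the filter. HFD-STZ sample 7 at 24 weeks stood apart: 23 genes had values above 22 in it, and its log2 value of Prph, a neuronal intermediate filament, was 14.55 against a group median of 8.91. The main differences of HFD-STZ mice at 24 weeks that are described below for single genes are therefore also given without it. Values within library runs, with the library run as a term or with marker covariates are given only with it, as are Pearson correlations.

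Slc5a7 varied most between groups, and Slc44a1 was the most abundant of the 10 genes per length. Their promoters are shown for this reason, with that of Chat, the other gene of acetylcholine synthesis, each from 250 bases before to 50 bases after the transcript start in RefSeq (GRCm38.p6). The dinucleotide CG is in capitals.
Slc5a7 (chr17:54298985-54299284, minus strand): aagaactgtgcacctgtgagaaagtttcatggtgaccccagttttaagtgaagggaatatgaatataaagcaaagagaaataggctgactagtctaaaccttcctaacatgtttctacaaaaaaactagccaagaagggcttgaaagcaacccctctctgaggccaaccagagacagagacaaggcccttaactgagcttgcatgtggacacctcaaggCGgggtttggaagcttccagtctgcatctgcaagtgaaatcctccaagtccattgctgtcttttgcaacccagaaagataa
Slc44a1 (chr4:53440163-53440462, plus strand): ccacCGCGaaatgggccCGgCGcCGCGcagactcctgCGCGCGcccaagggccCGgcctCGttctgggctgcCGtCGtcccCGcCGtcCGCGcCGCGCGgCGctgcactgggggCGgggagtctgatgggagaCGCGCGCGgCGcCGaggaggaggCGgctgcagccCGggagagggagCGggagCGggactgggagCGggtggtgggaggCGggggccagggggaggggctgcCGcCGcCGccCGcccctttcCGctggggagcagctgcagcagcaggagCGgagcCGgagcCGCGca
Chat (chr14:32465860-32466159, minus strand): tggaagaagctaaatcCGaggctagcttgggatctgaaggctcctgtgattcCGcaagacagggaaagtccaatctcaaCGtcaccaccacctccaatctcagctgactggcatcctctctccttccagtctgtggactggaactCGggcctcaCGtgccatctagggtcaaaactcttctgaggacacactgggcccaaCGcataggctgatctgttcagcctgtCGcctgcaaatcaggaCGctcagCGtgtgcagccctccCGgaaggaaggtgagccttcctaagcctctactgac

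The Slc5a7 window held 1 CG and 44.7% G or C, the Slc44a1 window 43 CG and 79.7%, and the Chat window 10 CG and 55.7%, where the median of 32851 promoters was 7 CG and 52.7%. Of all these promoters, 14.1% had as few CG as that of Slc5a7 or fewer. All 10 genes had a promoter entry. TATAAA, searched on both strands, occurred once in the Slc5a7 window at position -187 and in 13.6% of all promoters, and CCAAT occurred 2 times in the Chat window and in 37.4% of all. GGGCGG occurred 3 times in the Slc44a1 window, where 2 of the matches overlapped by part, and in 35.7% of all promoters. Such matches describe the letters only.

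Slc5a7 encodes the sodium-dependent, high-affinity choline transporter that limits acetylcholine synthesis in cholinergic terminals. The gene lies at chr17:54273590-54299034 on the minus strand (GRCm38, GENCODE M21), and no other annotated gene overlaps it. Its log2 level was lowest in SD mice at 16 weeks (3.71 ± 0.31, SD, n = 5), and was followed in order by HFD-STZ-DR mice at 24 weeks (3.94 ± 0.58, n = 6), SD mice at 24 weeks (4.65 ± 0.74, n = 8), HFD-DR mice at 24 weeks (5.79 ± 1.25, n = 7) and HFD-STZ mice at 16 weeks (5.83 ± 1.19, n = 5). The 3 highest groups were HFD mice at 16 weeks (7.84 ± 1.87, n = 7), HFD-STZ mice at 24 weeks (8.27 ± 1.46, n = 8) and HFD mice at 24 weeks (8.86 ± 1.24, n = 7). The ranges of each pair of neighbours in this order overlapped, so at no single step did all samples of a group lie above all of the group before it. Across its span of 5.15 on the log2 scale, the SD mice at both ages and the HFD-STZ-DR mice formed the low end. The group mean was above the filter on low values (3.32) in each of the 8 groups.

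**Figure D1:**
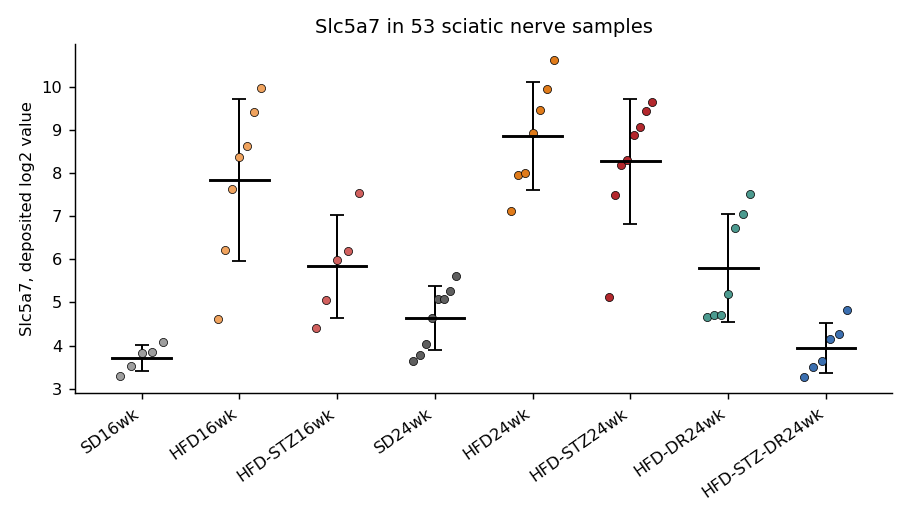
Deposited log2 value of Slc5a7 (y axis) in each of 53 sciatic nerve samples (points) in the 8 groups (x axis), with the group mean (wide bar) and SD (whiskers). The SD samples lie between 3.29 and 5.61 at both ages, and the HFD samples at 24 weeks lie between 7.11 and 10.62.

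At 16 weeks, before dietary reversal began, the question was whether Slc5a7 already differed between diseased and control nerves. In the 5 SD samples, its log2 values were 3.29, 3.52, 3.82, 3.85 and 4.07. In the 7 HFD samples, the lowest value was 4.61, the median 8.37 and the highest 9.98. All 7 HFD samples lay above all SD samples, a separation seen in the higher direction for 0.317% of the genes tested. The difference was 4.13 on the log2 scale (SE 0.74, 95% interval 2.53 to 5.73), which is 17.5-fold on the linear scale. It did not pass the threshold over all genes (adjusted p = 0.23 from limma, with 0.00557% of genes called), and its exact permutation p, 2-sided, was 0.00253, the smallest that 7 against 5 samples can give. The call differed between alternatives. The difference passed when all 8 groups shared 1 fit (adjusted p = 0.0043) and when HFD sample 6, at 4.61, was left out (4.67, adjusted p = 0.0090). The mean of the adipocyte markers was 11.79 to 13.80 in HFD samples and 8.51 to 12.91 in SD samples, and with it as a covariate the Slc5a7 difference was 3.59 (SE 0.90, adjusted p = 0.44 from limma).

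In the 5 HFD-STZ samples at 16 weeks, the Slc5a7 log2 values were 4.41, 5.06, 5.97, 6.19 and 7.54. All of these, too, lay above all SD samples, as was the case in the higher direction for 0.727% of the genes tested. The difference was 2.12 (SE 0.48, 95% interval 1.08 to 3.17, 4.36-fold), with an adjusted p of 0.39 from limma (0% of genes called) and an exact permutation p of 0.00794, the smallest possible with 5 against 5. Both disease comparisons share the SD samples. Between the models, the HFD-STZ level was lower than the HFD level by a log2 difference of -2.004 (SE 0.82, adjusted p = 0.99 from limma, with 0% of genes called), the ranges overlapped, and the exact permutation p was 0.063. With the adipocyte markers as a covariate, this difference was -0.88.

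At 24 weeks, the values of Slc5a7 that led to its choice were as follows. The 8 SD samples had a lowest log2 value of 3.65, a median of 4.86 and a highest of 5.61. The 7 HFD samples ran from 7.11 through a median of 8.92 to 10.62, and the 8 HFD-STZ samples from 5.12 through 8.60 to 9.65. Every HFD sample was above every SD sample (a separation in the higher direction that 0.181% of genes showed), and 7 of the 8 HFD-STZ samples were. The differences from SD were 4.21 (SE 0.47) for HFD and 3.62 (SE 0.53) for HFD-STZ, and the latter was 3.73 without HFD-STZ sample 7. The HFD-STZ sample at 5.12 had an adipocyte marker mean of 11.41, among the lowest of its group. HFD-STZ sample 7, with the lowest marker mean of the group (11.33), had Slc5a7 at 7.50. HFD sample 2, with a marker mean of 11.41, had Slc5a7 at 7.95.

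After dietary reversal, the 7 HFD-DR samples ran from 4.66 through a median of 5.19 to 7.51, and the 6 HFD-STZ-DR samples from 3.26 through 3.90 to 4.83. Of the HFD-DR samples, 6 lay below all HFD samples, and all 6 HFD-STZ-DR samples lay below all HFD-STZ samples, as 0.185% of genes did. The differences from the mice left on the diet were -3.07 (SE 0.59) for HFD-DR and -4.32 (SE 0.58) for HFD-STZ-DR. Without HFD-STZ sample 7, the latter was -4.43. The mean of the adipocyte markers also differed along these lines in part: it was 10.41 to 13.49 in HFD-DR and 11.41 to 14.08 in HFD samples, and 9.07 to 12.07 in HFD-STZ-DR and 11.33 to 13.90 in HFD-STZ samples. With adipocyte and muscle markers as covariates, the differences were -2.08 and -3.09. In the comparisons of diseased with SD mice at 24 weeks, the ranges of the adipocyte markers overlapped (10.83 to 13.48 in SD samples), and with both covariates the Slc5a7 differences were 4.30 for HFD and 3.41 for HFD-STZ.

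The other comparisons at 24 weeks use the same samples and are likewise descriptions. The level in HFD-DR mice differed from that in SD mice by 1.15 (SE 0.48), with 3 of 7 samples above all SD samples. The HFD-STZ-DR level differed from SD by -0.70 (SE 0.34), with 3 of 6 samples below all SD samples. HFD-STZ-DR differed from HFD-DR by -1.85 (SE 0.50), with 5 of 6 samples below all HFD-DR samples. HFD-STZ differed from HFD by -0.59 (SE 0.64), by -0.48 without HFD-STZ sample 7 and by -0.14 without the HFD-STZ sample at 5.12.

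With age, the Slc5a7 level was higher at 24 than at 16 weeks by 0.94 in SD mice (SE 0.33), by 1.02 in HFD mice (SE 0.75) and by 2.43 in HFD-STZ mice (SE 0.70, and 2.54 without sample 7). In HFD-STZ mice, 6 of 8 samples at 24 weeks lay above all samples at 16 weeks, the adipocyte marker mean was 9.58 to 13.13 at 16 weeks and 11.33 to 13.90 at 24 weeks, and with it as a covariate the difference was 1.17. The difference from SD was larger at 24 than at 16 weeks by 0.08 for HFD (SE 0.90) and by 1.498 for HFD-STZ (SE 0.81, and 1.61 without sample 7).

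The library numbers in the labels form 8 runs of consecutive numbers, and Slc5a7 was compared within them. HFD was above SD in all 5 runs that held both groups at 16 weeks and in all 7 at 24 weeks. HFD-STZ was above SD in all 4 runs at 16 weeks and in all 8 at 24 weeks. HFD-DR was below HFD in all 6 runs and HFD-STZ-DR below HFD-STZ in all 6, with differences of -5.92 to -0.44 and -5.50 to -1.85. The groups did not overlap for HFD against SD at both ages, HFD-STZ against SD at 16 weeks and HFD-STZ-DR against HFD-STZ. In these the sign in every run was fixed in advance, and the 24-week values had led to the choice of Slc5a7. The runs thus add no support for these differences. For the 9 other genes, 12 of 126 pairs of a gene and a comparison had 1 sign in every run. The share of such pairs over all genes was not determined, so the count cannot be read as a result about these genes. At 24 weeks, Chka in HFD mice exceeded that in SD mice in all 7 runs (by 0.12 to 0.66), and Cept1 was lower than in SD mice in all 8 runs for HFD-STZ and in all 7 for HFD-DR. Slc44a1 was lower at 24 than at 16 weeks in all 5 runs in SD, in HFD and in HFD-STZ mice. With the library run as a term in a fit over all 8 groups, none of these passed the threshold (adjusted p = 0.38 for Chka, 0.54 and 0.87 for Cept1, and 0.12, 0.75 and 0.15 for Slc44a1, from limma). The remaining pairs with 1 sign in every run were of Slc44a2, Pemt and Chpt1. Slc44a2 was higher in HFD-STZ than HFD mice at 16 weeks and in HFD-STZ-DR than HFD-STZ mice, and lower with age in HFD-STZ mice. Pemt was lower in HFD-STZ than SD mice at 16 weeks. Chpt1 was lower in HFD-STZ-DR than SD mice and higher with age in HFD-STZ mice.

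Across all 53 samples, Slc5a7 correlated with the mean of the adipocyte markers with a Pearson's r of 0.61. Within groups of at least 6 samples, r was 0.78 in HFD mice at 16 weeks, 0.91 in HFD and 0.87 in HFD-STZ mice at 24 weeks, 0.68 in HFD-DR mice, 0.26 in SD mice at 24 weeks and -0.73 in HFD-STZ-DR mice. Each of these groups holds 6 to 8 samples, and the samples share tissue content and treatment, so the values are a description. The sign was thus positive in 5 of the 6 groups. Other marker lists also moved with Slc5a7 within groups. For 6 macrophage markers r was 0.40 over all samples, 0.71 in HFD and 0.73 in HFD-STZ mice at 24 weeks, and -0.69 in SD mice at 24 weeks. The macrophage marker mean was 10.47 to 12.25 in HFD, 10.05 to 11.63 in HFD-STZ and 10.31 to 11.72 in SD samples at 24 weeks. For skeletal muscle markers r was -0.11 over all samples and ran from -0.74 in HFD mice at 16 weeks to 0.79 in SD mice at 24 weeks, and for myelinating Schwann cell markers it was -0.48 and ran from -0.78 in HFD-DR to 0.31 in HFD-STZ-DR mice. The part of macrophage and Schwann cell content in the Slc5a7 differences was not tested.

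**Figure D2:**
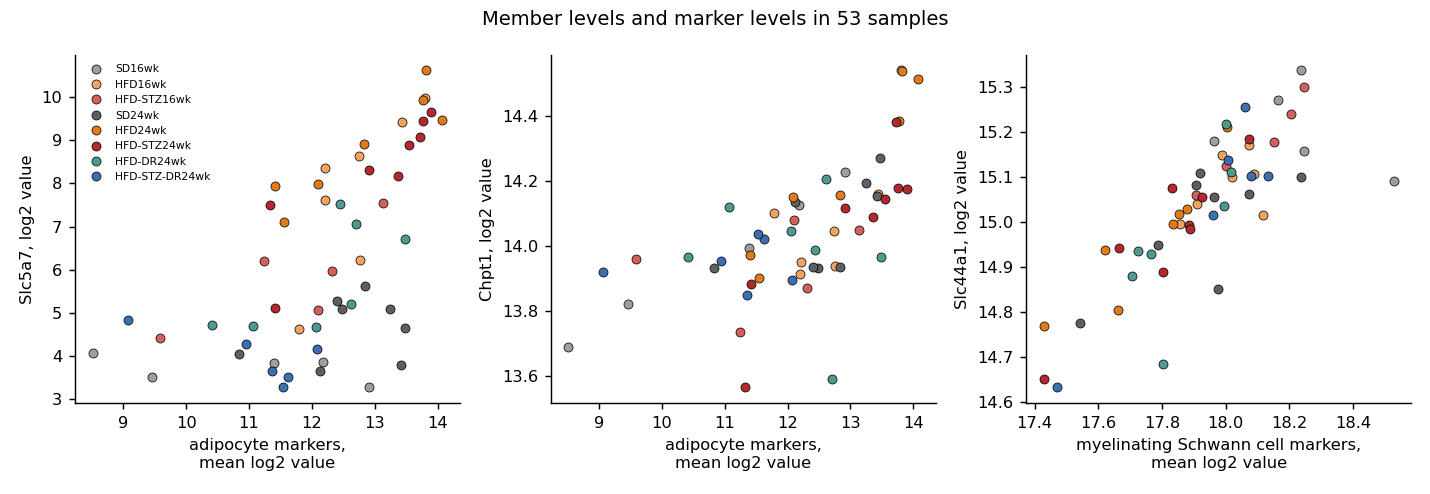
Log2 values of Slc5a7 (left) and Chpt1 (middle) against the mean log2 value of 6 adipocyte markers, and of Slc44a1 (right) against that of 4 myelinating Schwann cell markers, 1 point per sample, coloured by group. Pearson's r over the 53 samples is 0.61, 0.64 and 0.81. At 24 weeks and adipocyte marker levels above 13, Slc5a7 was 5.08, 3.78 and 4.65 in SD samples 5, 6 and 8. It was 9.94, 9.47 and 10.62 in HFD samples 1, 4 and 6, between 8.18 and 9.65 in HFD-STZ samples 1, 2, 3, 5 and 8, and 6.72 in HFD-DR sample 6. These few samples are a description, and a cause was not tested.

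The genes whose levels followed Slc5a7 most closely over the 53 samples were 1700047G03Rik (Pearson's r 0.96), an uncharacterised gene with a RIKEN name, Itgad (0.93), an integrin alpha subunit of leukocytes, Tph2 (0.93), the neuronal enzyme of serotonin synthesis, Mest (0.92), an imprinted gene known to rise in expanding fat tissue, and Saa3 (0.92), an acute-phase protein made by fat tissue and macrophages. After the group means were removed, the r of these 5 genes with Slc5a7 still lay between 0.84 and 0.89. Their group means moved with those of Slc5a7. Tph2 was 3.76 ± 0.40 in SD, 9.18 ± 1.23 in HFD and 4.65 ± 1.34 in HFD-DR mice at 24 weeks, and Mest was 9.14 ± 0.26, 10.93 ± 1.13 and 9.40 ± 0.57. These genes were ranked on the same samples, which share groups and tissue content.

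**Figure D3:**
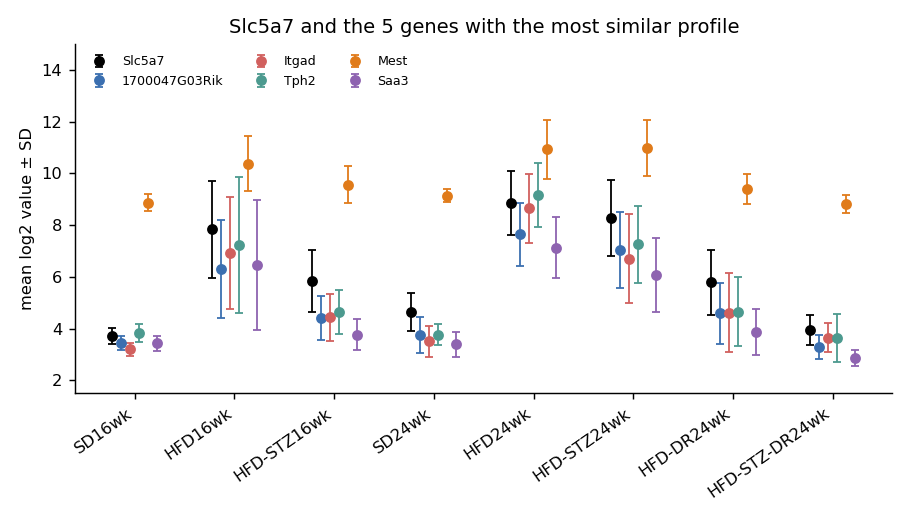
Mean log2 value ± SD (y axis) of Slc5a7 and of the 5 genes with the highest Pearson's r with it over 53 samples, in the 8 groups (x axis). All 6 genes have their 3 highest means in the HFD groups at both ages and in HFD-STZ mice at 24 weeks, where Slc5a7 lies between 7.84 and 8.86.

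Chat, which joins choline to acetyl-CoA, and its neighbour Slc18a3, the vesicular acetylcholine transporter that lies within the Chat gene, were low in all groups. Chat lies at chr14:32408203-32465989 on the minus strand. Its log2 group means ran from 2.26 in HFD-STZ to 2.62 in HFD-DR mice at 24 weeks, below the filter of 3.32 in all 8 groups, so it entered no fit across genes. In the 5 SD samples at 16 weeks the lowest value was 1.83 and the highest 3.11, in the 7 HFD samples 1.86 and 3.07, and in the 5 HFD-STZ samples 2.38 and 3.21. The groups overlapped, with differences from SD of -0.07 for HFD (2-sided exact permutation p = 0.79) and 0.18 for HFD-STZ (exact permutation p = 0.44). Its r with Slc5a7 over 53 samples was 0.01. Slc18a3 had group means of 2.24 to 3.15, and Mnx1, a motor neuron transcription factor, of 0.71 to 1.01. Isl1, a transcription factor of motor and sensory neurons, was above the filter in all 8 groups, with means of 3.63 to 4.83 and a highest value of 11.31 in HFD-STZ sample 7. Ache, which breaks down acetylcholine, had means of 5.74 in SD mice at 16 weeks to 7.33 in HFD-STZ mice at 24 weeks, where sample 7 was again the highest at 10.96.

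Slc44a1 and Slc44a2, which encode the choline transporter-like proteins CTL1 and CTL2, were the 2 most abundant of the 10 genes. On a per-length scale (mean log2 value less the log2 of the exonic length in kilobases), the levels were 12.24 for Slc44a1, 11.13 for Slc44a2, 10.99 for Chpt1, 10.01 for Cept1, 9.32 for Pcyt1a, 8.33 for Chkb, 6.67 for Pemt, 6.24 for Chka, 3.77 for Slc5a7 and 0.21 for Chat. The order is approximate, since reads may not cover all annotated exons. Slc44a1 lies at chr4:53440413-53622478 on the plus strand and Slc44a2 at chr9:21320698-21355028 on the plus strand. The log2 level of Slc44a1 stayed between 14.63 and 15.34 over all 53 samples, with group means from 14.97 to 15.21, and that of Slc44a2 between 13.82 and 14.58, with group means from 14.16 to 14.36. Neither passed the threshold in any comparison. The differences with the smallest unadjusted p were those with age. In SD mice, Slc44a1 was 15.09 to 15.34 at 16 weeks and 14.78 to 15.11 at 24 weeks, a log2 difference of -0.21 (SE 0.08, unadjusted p = 0.017, adjusted p = 0.44), and in HFD-STZ mice the difference was -0.21 (SE 0.08, unadjusted p = 0.027, adjusted p = 0.35) and -0.196 without sample 7. In HFD mice it was -0.12 (SE 0.07, adjusted p = 0.87). For Slc44a2 the differences with age were -0.10, -0.19 and -0.13 in SD, HFD-STZ and HFD mice, and only that in HFD-STZ mice had an unadjusted p under 0.05 (0.036, adjusted p = 0.37 from limma). Without sample 7 it was -0.17.

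Over all samples, both genes followed the myelin genes. Over 53 samples, r with the mean of Mbp, Pmp22, Prx and Mag was 0.81 for Slc44a1 and 0.70 for Slc44a2, and within groups of at least 6 samples it ran from 0.43 to 0.93 for Slc44a1 and from 0.18 to 0.93 for Slc44a2. The r between both transporters was 0.75, the highest of the pairs among the 10 genes, and that between Slc44a1 and Slc5a7 was -0.40. The myelin marker mean itself was 17.96 to 18.53 in SD samples at 16 weeks (mean 18.23) and 17.54 to 18.23 at 24 weeks (mean 17.93), so it was lower on average at the later age beside the transporters, and its part in the age differences was not tested.

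The kinases commit choline to phosphatidylcholine by phosphorylating it. Chka lies at chr19:3851773-3894369 on the plus strand and Chkb at chr15:89426360-89429908 on the minus strand, where the gene model Gm44502 on the same strand shares 50.7% of its exonic bases, so the reads of Chkb may be split. Chka had log2 group means of 9.66 to 9.95 and Chkb of 9.81 to 10.08. At 24 weeks, Chkb ran from 9.43 through 9.81 to 10.09 in SD samples, and from 9.85 through 10.06 to 10.37 in HFD-STZ samples. The groups overlapped, and the difference was 0.26 (SE 0.09, unadjusted p = 0.014, adjusted p = 0.80 from limma, with 0.0336% of genes called), the largest in size of the 14 comparisons of 2 groups over the 8 other genes tested. It was 0.22 without HFD-STZ sample 7. Chka differed by 0.21 between the HFD and SD groups at 24 weeks (SE 0.12, 95% interval -0.04 to 0.46, adjusted p = 0.61), and its difference of 0.23 in HFD-STZ mice (adjusted p = 0.83) was 0.11 without sample 7, whose Chka value of 10.79 stood 0.82 above the next.

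Pcyt1a, the CTP:phosphocholine cytidylyl transferase whose step limits the rate of the route, lies at chr16:32430921-32475070 on the plus strand. At 24 weeks its log2 level ran from 12.01 through 12.29 to 12.82 in SD samples and from 12.02 through 12.11 to 12.15 in HFD-STZ samples, which were the tightest of all groups. The difference was -0.22 (SE 0.08, unadjusted p = 0.018, adjusted p = 0.81 from limma) and -0.21 without sample 7, and the HFD difference was -0.17. After reversal, the HFD-STZ-DR samples lay between 12.04 and 12.39, a difference of 0.15 from HFD-STZ (SE 0.06, unadjusted p = 0.030, adjusted p = 0.68, with 0.084% of genes called), and of 0.13 without sample 7. The ranges overlapped in each of these comparisons.

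Cept1 and Chpt1 transfer phosphocholine to diacylglycerol, the last step of the route. Cept1 lies at chr3:106502260-106547802 and Chpt1 at chr10:88452745-88504073, both on the minus strand, and the opposite-strand gene Dennd2d shares 24.7% of the exonic bases of Cept1, whose reads an unstranded library cannot tell apart. Cept1 had its highest group mean, 11.80, in SD mice at 16 weeks and its lowest, 11.56, in HFD-DR mice. At 24 weeks it was lower than in SD mice by a log2 difference of -0.16 in HFD-DR (SE 0.05, unadjusted p = 0.0086, adjusted p = 0.93) and of -0.15 in HFD-STZ-DR mice (SE 0.07, unadjusted p = 0.041, adjusted p = 0.52), comparisons that share the SD samples. Chpt1 ran from 13.90 through 14.16 to 14.54 in HFD and from 13.59 through 13.99 to 14.21 in HFD-DR samples. The groups overlapped, with a difference of -0.25 (SE 0.11, unadjusted p = 0.047, adjusted p = 0.74 from limma, with 0.0108% of genes called). The lowest HFD-DR value, 13.59 in sample 1, lay apart from the next at 13.97. The r of Chpt1 with the adipocyte markers was 0.64 over 53 samples. Within groups of at least 6 samples it ran from -0.21 in HFD-DR mice to 0.96 in the 7 HFD samples at 24 weeks. With the macrophage markers, r was 0.69 over 53 samples and ran from -0.05 in HFD-STZ-DR to 0.87 in HFD mice at 24 weeks. The genes most like Chpt1 were Hsd17b4 (r 0.89), a peroxisomal enzyme of fatty acid oxidation, Syap1 (0.85) and Ptp4a1 (0.84).

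Pemt makes phosphatidylcholine by a separate route, the methylation of phosphatidylethanolamine, which is mainly known from liver. It lies at chr11:59970614-60046489 on the minus strand, and its log2 group means ran from 7.65 in HFD-DR to 7.88 in HFD-STZ mice at 24 weeks. At 24 weeks it ran from 7.36 through 7.66 to 8.07 in SD and from 7.55 through 7.95 to 8.31 in HFD-STZ samples. The groups overlapped, and the difference was 0.23 (SE 0.13, 95% interval -0.05 to 0.50, adjusted p = 0.83) and 0.17 without sample 7, the highest at 8.31.

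**Figure D4:**
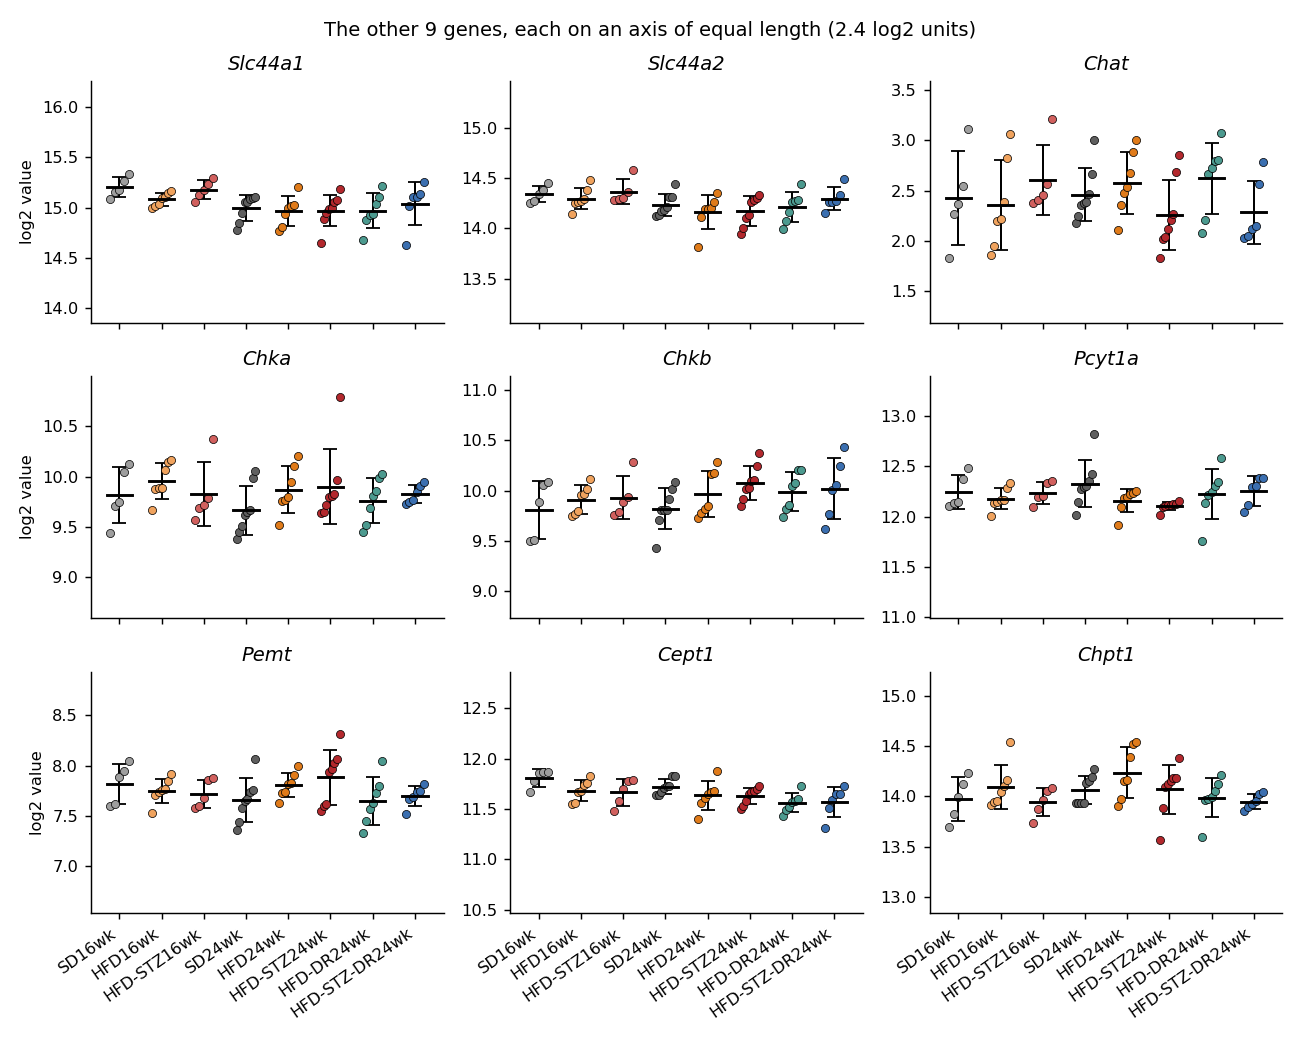
Log2 values (y axes, each 2.4 units long) of the 9 genes other than Slc5a7 in the 8 groups (x axis), 1 point per sample, with the mean (wide bar) and SD (whiskers). The group means of a gene span at most 0.37.

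Of the 10 genes, 9 passed the filter on low values. Over the 8 of these other than Slc5a7, tested with limma, 0 of 136 tests over 17 comparisons passed the threshold, with a lowest adjusted p of 0.35. Of all genes tested, 0.121% were called between HFD and SD mice at 24 weeks, 0.0336% for HFD-STZ, 0.0108% and 0.084% after reversal in HFD and HFD-STZ mice, 0.00557% between HFD and SD at 16 weeks, 0.0654% with age in HFD mice, and 0% in each of the other comparisons. An unadjusted p under 0.05 was found in 10 of the 136 tests. These were 3 of 8 genes with age in HFD-STZ mice (12.5% of all genes) and 1 of 8 in SD mice (10.5%), 2 of 8 between HFD-STZ and SD at 24 weeks (5.99%), 1 of 8 after reversal in each model (6.72% and 6.48%), and 1 of 8 in HFD-DR (5.14%) and in HFD-STZ-DR (9.16%) against SD. There were 0 of 8 between HFD and SD at 24 weeks (9.05%), and at 16 weeks 0 of 8 for both HFD (8.55%) and HFD-STZ (8.41%) against SD. None of the 112 tested differences between 2 groups exceeded 0.26 on the log2 scale. In simulated data for HFD against SD mice at 24 weeks, log2 changes of 0.25 were recovered for only 6% of genes. The lack of calls therefore cannot exclude changes of this size. The span of the group means was 0.20 to 0.29 for these 8 genes and 0.33 at the median of 18069 genes. In the main comparisons, the 95% intervals of the differences reached at most from -0.49 to 0.55, so larger changes of a member in these groups lie outside them.

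**Figure D5:**
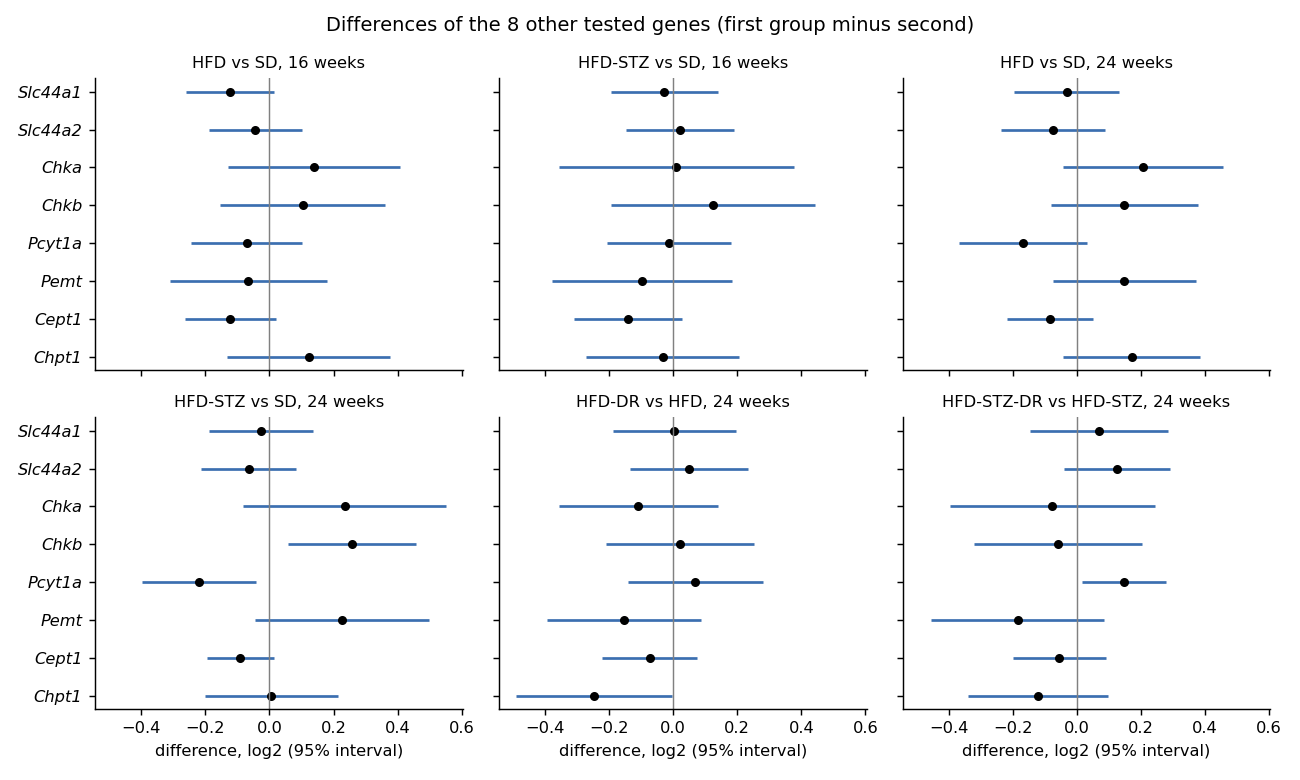
Difference in log2 level (x axis, first group minus second, point) with its 95% interval from limma (line) for the 8 genes tested other than Slc5a7 (y axis) in 6 comparisons. No point lies beyond 0.26, and the intervals of Chkb (0.06 to 0.46) and Pcyt1a (-0.40 to -0.04) of HFD-STZ against SD at 24 weeks leave out 0.

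The genes most similar to the other members over the 53 samples were Emp2 (r 0.90), Tmco3 and Slc35a5 for Slc44a1, Fut8 (0.88), Slc20a2 and Vat1l for Slc44a2, Sycp2l (0.78), Gm38299 and Akr1cl for Chat, 1500004A13Rik (0.76), Adam11 and Map3k12 for Chka, and Lsm7 (0.83), Miip and Taz for Chkb. For Pcyt1a they were Cse1l (0.86), Eif4g2 and Slc35e1, for Pemt Sncg (0.77), Clta and Txndc17, and for Cept1 Snx1 (0.83), Tram1 and Asah1. Among the members themselves, Chka and Chkb had an r of 0.50, Slc44a1 and Cept1 of 0.51, and Chkb and Cept1 of -0.59. All these r include HFD-STZ sample 7 at 24 weeks, which had the highest Chka (10.79) and Pemt (8.31) values of the 53 samples. They were not recomputed without it.

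The neighbouring steps were examined with 53 further genes in 8 lists, of which 46 or 47 were above the filter, depending on the comparison. By limma, 0 of them passed the threshold in any comparison. Between HFD and SD mice at 24 weeks, the tested genes had a median log2 difference of -0.07 (all genes 0.01), and 0 were higher and 2 lower at an unadjusted p under 0.05, as 9.05% of all genes were in either direction. For HFD-STZ against SD the median was -0.03 (all genes 0.00), with 1 higher and 1 lower (5.99% of all genes). After reversal, it was 0.05 in HFD-DR (all genes -0.0019, 0 higher and 2 lower, 6.72% of all genes) and 0.03 in HFD-STZ-DR mice (all genes 0.0069, 0 higher and 2 lower, 6.48% of all genes).

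In each list, the gene with the smallest unadjusted p in these 4 comparisons was as follows. Of the other choline transporters (8 genes, Flvcr1 and Flvcr2 included under their older names Mfsd7b and Mfsd7c), it was Slc44a3, a further choline transporter-like protein, whose log2 level ran from 5.31 through 6.30 to 7.16 in HFD-STZ and from 4.54 through 5.31 to 6.19 in HFD-STZ-DR samples. These groups overlapped, with a difference of -0.92 (SE 0.30, unadjusted p = 0.0072, adjusted p = 0.39 from limma), and of -1.06 without sample 7 (adjusted p = 0.11). Agpat2, which makes phosphatidate and is abundant in fat tissue, was 11.25 to 12.41 in HFD-STZ and 11.06 to 11.44 in HFD-STZ-DR samples, a difference of -0.59 (SE 0.17, adjusted p = 0.30), and of -0.68 without sample 7 (adjusted p = 0.068). In HFD-DR against HFD mice, the differences were -0.49 (SE 0.31, adjusted p = 0.85) for Slc44a3 and -0.59 (SE 0.22, adjusted p = 0.64) for Agpat2. The adipocyte markers given above were lower in the same samples on average, with a mean of 11.10 in HFD-STZ-DR against 12.99 in HFD-STZ samples.

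Of the lists nearer to the route, Selenoi, the ethanolamine phosphotransferase, differed by 0.18 from HFD-STZ after reversal (adjusted p = 0.89 from limma, and 0.12 without sample 7), and Pisd, which makes phosphatidylethanolamine from phosphatidylserine, by -0.12 between HFD and SD mice at 24 weeks (adjusted p = 0.59). In the same comparison, Gde1, a glycerophosphodiester phosphodiesterase, differed by -0.18 (SE 0.07, unadjusted p = 0.019, adjusted p = 0.45), Stard10, a phospholipid transfer protein, by -0.22 (adjusted p = 0.57), and Aldh7a1, which oxidises betaine aldehyde, by -0.11 (adjusted p = 0.60). Of the cholinergic synapse genes, Chrm1, a muscarinic receptor, differed by 0.31 in HFD-STZ against SD at 24 weeks (SE 0.14, unadjusted p = 0.039, adjusted p = 0.82) and by 0.32 without sample 7.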

How the data were processed

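The authors removed reads of quality under Q30 and adapters, mapped the rest to mouse GRCm38 (mm10) by HISAT2 and summed them over genes by featureCounts. Deposited values are log2 levels, normalised between samples in a way not given in the sources used here, and they are neither counts nor FPKM, so no model of counts was used. The study describes the libraries as unstranded, and the kit is named differently in the study and the labels.

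Values were compared with limma 3.58.1 (R 4.3.3) on the samples of the groups compared, with a variance prior following mean expression and Benjamini-Hochberg adjustment over all genes tested. The threshold was an adjusted p under 0.05. A gene entered the fit if its mean reached 3.32 (10 before the logarithm) and no sample exceeded 22, which left out 25 genes. Chat and, at 16 weeks, Slc5a7 had 2-sided exact permutation tests as well (scipy 1.17.1). Data were simulated for HFD against SD mice at 24 weeks with 18069 genes. In them, log2 changes of 0.25, 0.5, 1 and 2 were recovered for 6%, 42%, 84% and 98% of genes.

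The named genes were all 10 members, the gene with the smallest p of each pathway list, and the 3 genes (5 for Slc5a7) with the highest Pearson's r with each member. Some markers of the Schwann cell list are not reported here, and its mean was taken over the others. Members and lists were chosen with earlier results of these data known. Mfsd7b and Mfsd7c were matched through RefSeq synonyms. Alternatives were other filters, fits over all 8 groups with and without the library run, robust and untrended priors, median centring, marker covariates and leaving out each sample.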

Additional observations from a re-analysis of the deposited data

Results flagged for a closer look

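In 6 of 80 combinations of a member and a group, 1 sample lay farther from the others than Dixon's 95% criterion allows, where chance gives about 1 in 20. HFD-STZ sample 7 at 24 weeks, which carries the high neuronal transcripts, had the highest Chka value (10.79, next 9.97) and the lowest Pcyt1a value (12.02, next 12.10) of its group. Chka was 10.37 in HFD-STZ sample 1 at 16 weeks (next 9.78), and Chat was 3.21 in HFD-STZ sample 4 at 16 weeks (next 2.57). Chpt1 was 14.54 in HFD sample 2 at 16 weeks (next 14.16) and 13.59 in HFD-DR sample 1 at 24 weeks (next 13.97).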

How the results depend on the processing

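In counts of members past the threshold, Slc5a7 was left out for HFD and HFD-STZ against SD mice at the later age. It was also left out for each reversal group against its model. In all other comparisons, some with samples of the later age, Slc5a7 was counted only to compare alternatives, not as a test. The number of members past the threshold was recomputed 458 times over 17 comparisons and stayed the same in 455. For HFD against SD mice at 16 weeks it was 1 (Slc5a7) in place of 0 with all 8 groups in 1 fit, with the library run added to that fit (log2 difference 4.18, adjusted p = 0.0021), and without HFD sample 6, so that leaving out 1 sample gave 0 to 1. Of 4113 recomputed member values, 0 were labelled reversed. That label required a change of sign together with a pass of the threshold in the main or the alternative fit. Any other change of sign was counted as the same. The genes other than Slc5a7 passed in no main fit, so the 0 does not show that their directions were stable. The HFD-STZ-DR difference of Slc5a7 from HFD-STZ moved from -4.32 to -3.09 with both marker scores as covariates, and the cause was not tested. No paired analysis was possible because the replicate numbers follow only the order of accession. The runs of library numbers, which the labels call neither pairs nor batches, entered as a term in the fit over all 8 groups. Against the same fit without them, in which Slc5a7 at 16 weeks already passed, the number of members past the threshold did not change. Leaving out HFD-STZ sample 7 for the pathway genes was chosen after seeing the data and changed no call. Centring each sample on its median kept the span of the Slc5a7 group means at 5.07. Reads per gene are unknown, so the precision at low levels, as for Chat, rests on the spread between samples.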
